A study of Homo sapiens with 12 samples.

Results

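Among 12 RNA libraries from A549, an established line of human lung adenocarcinoma cells, libraries 2, 6 and 10 were set beside libraries 1, 5 and 9. The 6 libraries were picked by library number: each set holds the numbers that leave the same remainder when divided by 4, and these were seen to be the most alike in their gene counts. The study compared A549 cells with a tetracycline-inducible gene for DYRK1B, a dual-specificity kinase, either wild type (WT) or with the Y273F change, phenylalanine in place of a tyrosine. All 12 cultures grew for 7 days, with doxycycline at 2 µg/ml to switch the gene on or without it (control), which gives 4 titled groups of 3, all under 1 batch label. RNA was read by 3' tag sequencing, which counts reads near the polyadenylated end of each transcript.

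The sets cross the groups in the sample titles. By title, libraries 2, 6 and 10 are WT control replicate 2, WT doxycycline replicate 3 and Y273F doxycycline replicate 1. Libraries 1, 5 and 9 are WT control replicate 1, WT doxycycline replicate 2 and Y273F control replicate 3. The titles therefore give neither set a common line or treatment, and none is assumed here. Whether each title belongs to the library that carries it could not be settled from the files, so titles are given as labels only. Every one of these cultures carries an inducible DYRK1B construct, and no culture without one is among the samples. The sources used here do not say whether each line is 1 clone or a pool. Because the likeness of the counts chose the sets, each value below is a description of these libraries, and no test was run between them.

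Values are CPM, a gene's count for every 1000000 counts of a library's total after scaling between libraries by trimmed means. A gene is called separated here where the lowest of the 3 libraries of a set was at least 1.5 times the highest of the other 3, and the closest-library ratio is that lowest value over that highest value. The middle library of a set is its median, and medians of gene lists are log2 ratios of the middle CPM of libraries 2, 6 and 10 over that of 1, 5 and 9. Of 11994 genes with a mean of at least 2 CPM over the 6 libraries, 1150 (9.59%) were separated and higher in libraries 2, 6 and 10, and 799 (6.66%) were separated and lower, 16.2% in all. With any gap between the sets, 3161 genes (26.4%) were higher and 3683 (30.7%) lower, 57.1% in all, so lower genes were the larger number with any gap and higher genes the larger number at a 1.5-fold gap and at each wider gap counted. A closest-library ratio of at least 5 was found for 152 higher and 45 lower genes, and one of at least 10 for 52 higher and 11 lower genes. A gene can reach the mean of 2 CPM through 1 set alone, which favours separated genes among those that pass. The shares over all genes, at a 1.5-fold gap and with any gap, are the scale for each list count below. Just inside the 1.5-fold limit on the high side lay DSG2, a desmosomal cadherin gene, at 172 to 201 CPM against 111 to 115 CPM. Outside it, with a closest-library ratio of 1.498, lay PTGES, a prostaglandin E synthase gene, at 158.98 to 191 CPM against 91.6 to 106 CPM. On the low side SCP2, a sterol carrier gene, lay just inside, at 63.0 to 77.9 CPM against 117 to 134 CPM, and KIF18B, a mitotic kinesin gene, just outside, at 27.2 to 30.5 CPM against 45.7 to 48.7 CPM.

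Senescence is a lasting stop of the cell cycle in cells that stay metabolically active. It is known for high CDK inhibitor levels, low levels of replication and mitosis genes, loss of lamin B1 and secretion of matrix proteins, proteases and cytokines. In carcinoma cells a related mesenchymal and contractile programme is driven by TGF-beta and by actin-regulated transcription factors, and it is often accompanied by loss of secretory epithelial genes.

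Pearson correlations of log2(CPM + 1) were taken across the 11994 genes with a mean of at least 2 CPM, which are not independent replicates. They were 0.981 to 0.986 among libraries 2, 6 and 10 and 0.990 among libraries 1, 5 and 9. Between the sets they were 0.913 to 0.925. Depth differed between the sets, with 2.78e+06 to 7.17e+06 counts in libraries 2, 6 and 10 and 8.73e+06 to 22.0e+06 in libraries 1, 5 and 9. With all libraries thinned to the smallest total, 1069 genes were separated and higher and 685 separated and lower. Ribosomal protein genes took 10.2% to 10.7% of the counts of libraries 2, 6 and 10 and 12.9% to 13.2% of those of 1, 5 and 9, and mitochondrially encoded genes took 4.79% to 5.36% and 3.52% to 4.18%. Without mitochondrially encoded genes, 1202 genes were separated and higher and 758 separated and lower. The part of the ribosomal protein share in the results was not tested.

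**Figure D1:**
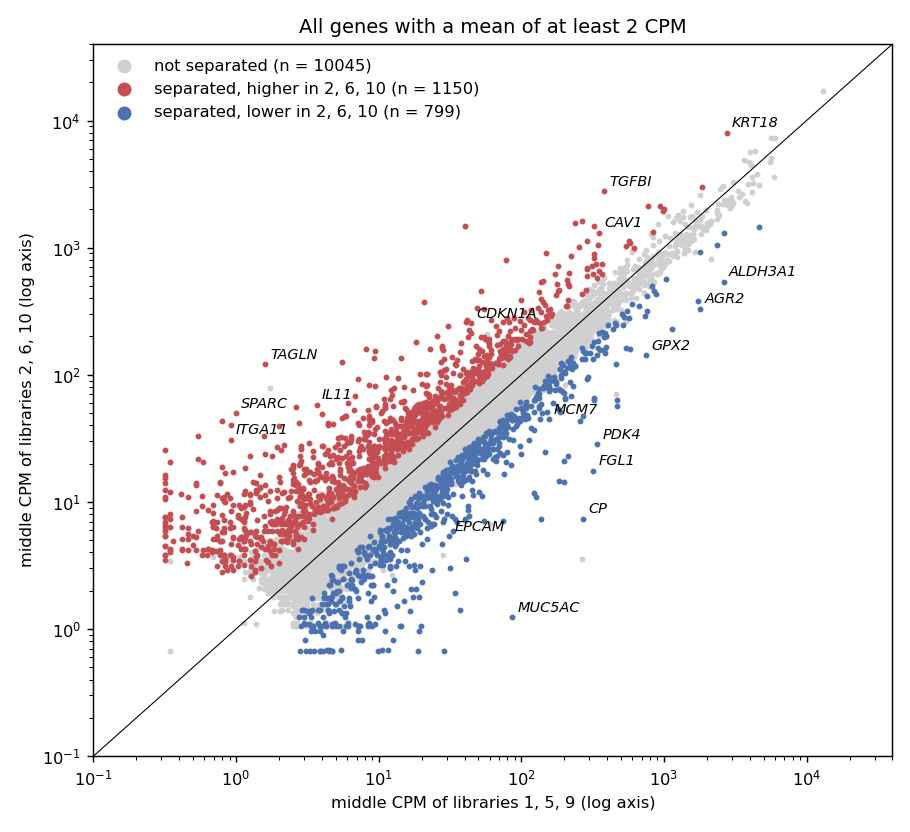
Each point is a gene with a mean of at least 2 CPM, at its middle CPM in libraries 1, 5, 9 (horizontal, log axis) and 2, 6, 10 (vertical, log axis), with values under 3 counts of a library set to that floor. Points off the diagonal in red (1150 genes) and blue (799 genes) are those separated at least 1.5-fold, with TAGLN and SPARC far above it and MUC5AC and CP far below it.

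TAGLN, CDKN1A, MUC5AC and CP mark the contrast between the sets, and together they show an actin-binding and a cell-cycle gene on the high side and a mucin and a plasma protein gene on the low side. TAGLN (chromosome 11, 117199294 to 117207465; these and later gene positions are RefSeq genes on GRCh38.p14), which encodes the actin-binding protein transgelin of smooth muscle, had 136, 119 and 121 CPM in libraries 2, 6 and 10 and 1.604, 1.16 and 1.77 CPM in libraries 1, 5 and 9. CDKN1A (chromosome 6, 36676463 to 36687332), which encodes the CDK inhibitor p21, had 253, 272 and 237 CPM against 44.1, 47.04 and 43.7 CPM. In both genes all 3 libraries of the first set lay above all 3 of the second, with closest-library ratios of 67.4 and 5.05. With unstranded counts, made without regard to the strand of a read, the log2 ratio of TAGLN between the middle libraries was 2.39 in place of 6.24. The cause was not tested. MUC5AC (chromosome 11, 1157953 to 1201138), a gel-forming mucin of airway secretory cells, had 0.223, 1.24 and 2.45 CPM in libraries 2, 6 and 10 and 76.8, 86.2 and 94.3 CPM in 1, 5 and 9. CP (chromosome 3, 149162414 to 149221829), the copper-carrying plasma protein ceruloplasmin, had 7.35, 16.4 and 6.65 CPM against 239, 274 and 270.1 CPM. For these genes the sets lay apart in the other direction, with closest-library ratios of 31.3 and 14.6. The spread within a set was small next to these gaps, except for MUC5AC in libraries 2, 6 and 10, which rests on 1, 9 and 7 reads.

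**Figure D2:**
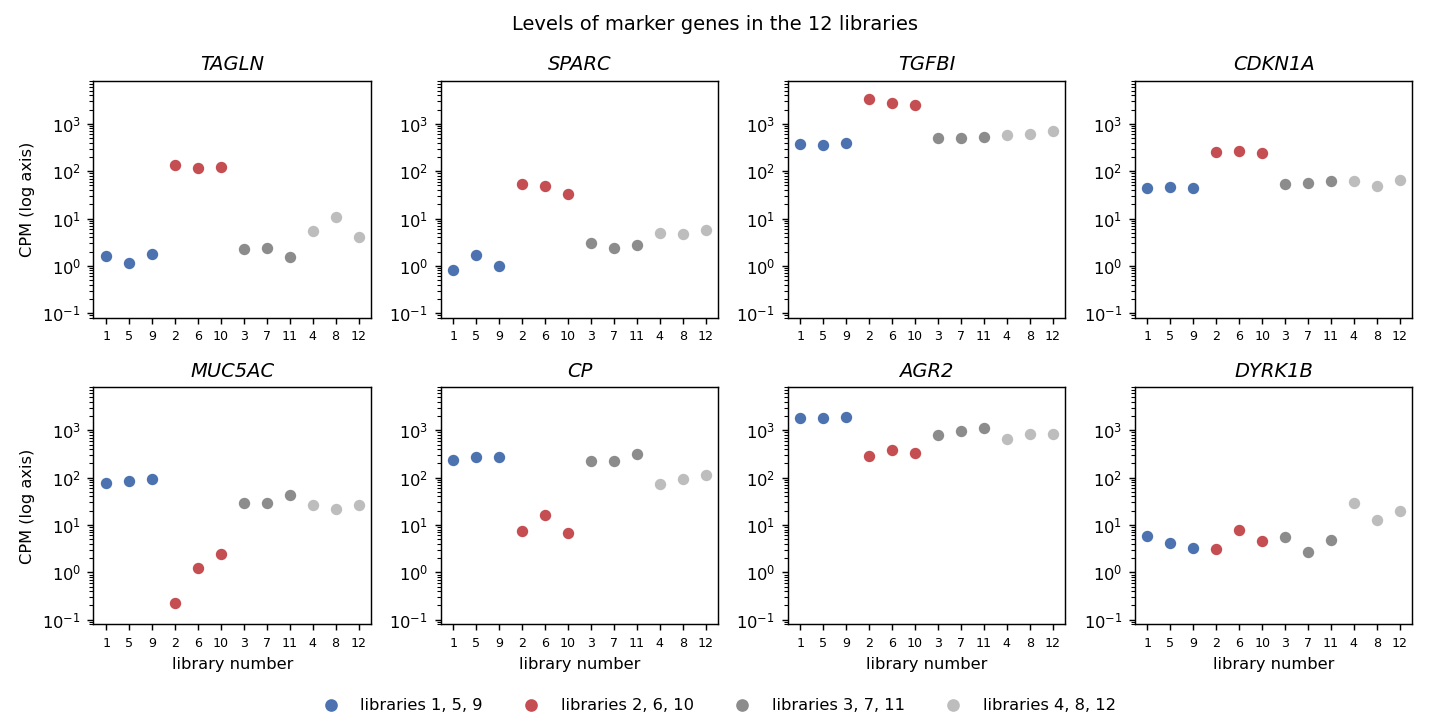
CPM (log axis) of 8 genes in each of the 12 libraries, ordered and coloured by set. Libraries 2, 6 and 10 are highest for TAGLN, SPARC, TGFBI and CDKN1A and lowest for MUC5AC, CP and AGR2, while DYRK1B overlaps between them and libraries 1, 5 and 9.

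DYRK1B itself, the kinase gene that the constructs carry, did not distinguish the sets. It had 3.12, 7.69 and 4.55 CPM in libraries 2, 6 and 10 and 5.84, 4.095 and 3.27 CPM in libraries 1, 5 and 9, so the sets overlapped. Libraries 4, 8 and 12 had 12.6 to 28.5 CPM and libraries 3, 7 and 11 had 2.64 to 5.66 CPM. The library labelled Y273F control replicate 2 (library 8) is thus among the 3 with the highest DYRK1B, and libraries labelled doxycycline are among the others. Reads come from 3' ends, and the sources used here do not describe that of the constructs, so construct transcripts may be counted in part or not at all. CDH10, a cadherin gene, was on in both sets, with 5.57, 3.44 and 2.801 CPM in libraries 2, 6 and 10 and 5.27, 5.57 and 6.08 CPM in 1, 5 and 9, and was at most 0.251 CPM in the other 6 libraries. CSAG1, a cancer-testis gene, was at most 0.824 CPM in both sets and at 9.17 to 11.4 CPM and 13.3 to 14.2 CPM in libraries 3, 7, 11 and 4, 8, 12. Both genes were part of how the sets were set beside each other.

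Among inhibitors of the cell cycle, CDKN1A was the member separated on the high side. Of 6 CDK inhibitor genes that passed the level filter, of 8 listed, 1 was separated and higher and 3 were separated and lower. Over all genes these shares were 9.59% and 6.66%. CDKN1B, which encodes p27, had 29.9, 35.9 and 26.96 CPM in libraries 2, 6 and 10 and 63.4, 66.9 and 63.7 CPM in 1, 5 and 9. CDKN2C, which encodes the INK4 inhibitor p18, was at 23.5 to 26.5 CPM against 42.6 to 48.1 CPM, and CDKN3, a CDK-binding phosphatase gene that is itself expressed in dividing cells, at 70.6 to 71.7 CPM against 129.9 to 135 CPM. All these lay lower in every library of the first set. CDKN2A and CDKN2B, the genes of p16 and p15, were listed at 0 in all 12 libraries.

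Genes of G1 cyclins and their kinases were separated about as often as all genes (9.59% higher and 6.66% lower), with 1 on each side. Of 10 genes of the D and E cyclins, CDK2, CDK4, CDK6 and the RB family, CDK6 was separated and higher, at 109, 125 and 124 CPM against 63.01, 66.05 and 67.8 CPM. CCNE2, a cyclin that drives entry into S phase, was separated and lower, at 2.67, 3.44 and 2.45 CPM against 9.28, 6.195 and 7.803 CPM. Its log2 ratio of -1.55 was -0.51 with unstranded counts. CCND1, the most abundant of the list, had 249, 238 and 254 CPM and 189, 199 and 215 CPM, a gap without overlap but short of 1.5-fold.

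Replication genes lay lower as a body in libraries 2, 6 and 10. All 40 listed genes of DNA replication and the G1/S transition passed the filter, and 23 were separated and lower, 0 were separated and higher, and 39 were lower without overlap. Their median log2 ratio was -0.84, beside -0.05 over all genes, of which 6.66% were separated and lower and 30.7% lower without overlap. MCM7, a subunit of the replicative helicase, had 42.6, 44.7 and 56.01 CPM in libraries 2, 6 and 10 and 167, 155 and 149 CPM in 1, 5 and 9. E2F2, a transcription factor of S phase entry, had 4.01, 3.98 and 4.55 CPM against 12.03, 13.02 and 11.2 CPM, and RFC4, a subunit of the clamp loader, 14.04, 13.7 and 13.7 CPM against 32.3, 34.8 and 31.9 CPM. The replication clamp gene PCNA was at 134 to 172 CPM against 282 to 317 CPM, and RRM1, the large subunit of ribonucleotide reductase and the list's most abundant gene, at 239 to 256 CPM against 403 to 455 CPM. These transcripts were lower but present in each of libraries 2, 6 and 10.

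Mitotic genes showed the same direction with smaller gaps. Of 38 of 39 G2/M and mitosis genes that passed, 12 were separated and lower, 0 separated and higher and 33 lower without overlap, with a median log2 ratio of -0.63. Over all genes 6.66% were separated and lower and 30.7% lower without overlap. ECT2, a guanine nucleotide exchange factor of cytokinesis, had 74.9, 90.6 and 73.5 CPM in libraries 2, 6 and 10 and 192, 191 and 193 CPM in 1, 5 and 9. CDK1, the mitotic kinase, had 90.02, 90.1 and 77.02 CPM against 169.9, 171 and 191 CPM, and PTTG1, which encodes securin, 129, 135 and 133 CPM against 266, 281 and 245 CPM. TOP2A, the most abundant gene of the list, was at 904 to 1160.5 CPM against 1240.1 to 1491 CPM, a narrower gap. NUSAP1, a spindle protein gene that dividing cells use, was listed at 0 in all 6 libraries, so a 0 in the deposited table need not mean that a gene was off.

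Promoters are shown for replication, mitosis and contractile genes because members of these lists lay on the same side together. Sequences are the 250 bases before the RefSeq start site (GRCh38.p14), 5' to 3' on the gene's strand, with matches to a motif in capitals. For MCM7 and RFC4 the capitals mark TTCCCGC or its reverse complement, letters of the E2F type, and for CDK1 they mark TTTGAA, letters of the cell cycle homology type bound by the DREAM complex. MCM7 is at chr7:100101398-100101647 (minus strand), RFC4 at chr3:186806483-186806732 (minus strand) and CDK1 at chr10:60778081-60778330 (plus strand).
MCM7: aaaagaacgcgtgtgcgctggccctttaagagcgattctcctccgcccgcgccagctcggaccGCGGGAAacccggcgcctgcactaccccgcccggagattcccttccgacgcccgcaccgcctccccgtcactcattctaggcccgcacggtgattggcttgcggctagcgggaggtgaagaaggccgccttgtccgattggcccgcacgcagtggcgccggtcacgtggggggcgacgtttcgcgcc
RFC4: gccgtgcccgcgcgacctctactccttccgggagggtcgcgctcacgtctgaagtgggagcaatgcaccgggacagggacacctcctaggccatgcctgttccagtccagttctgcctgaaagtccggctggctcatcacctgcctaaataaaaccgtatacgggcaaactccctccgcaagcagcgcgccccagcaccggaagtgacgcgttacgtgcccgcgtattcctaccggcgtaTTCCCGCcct
CDK1: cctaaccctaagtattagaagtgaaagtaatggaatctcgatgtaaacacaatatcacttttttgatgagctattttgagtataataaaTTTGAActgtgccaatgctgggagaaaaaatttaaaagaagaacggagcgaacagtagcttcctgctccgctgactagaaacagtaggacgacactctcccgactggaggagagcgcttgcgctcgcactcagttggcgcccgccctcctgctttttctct
Over the whole window, 250 bases before to 50 after the start, TTCCCGC was found on either strand in 18 of 37 replication promoters that matched (48.6%), and in 6.56% of all 27305 promoters of that length. TTTGAA was found in 19 of 32 mitosis promoters that matched (59.4%) and in 15.4% of all promoters. Among the separated genes, TTCCCGC was in 13.4% of 611 promoters of lower genes and in 8.29% of 869 promoters of higher genes, and in 10.7% of 9520 promoters of all genes that passed the level filter. TTTGAA was in 14.4% of promoters of lower genes, 8.98% of those of higher genes and 9.40% of those of all genes that passed. A match describes letters in this window and is not shown to be a bound site.

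Nuclear architecture genes were lower in part. Of 10 lamin, lamina-associated and HMGB genes, all of which passed, 3 were separated and lower, and these were the chromatin proteins HMGB1, HMGB2 and HMGB3. Over all genes 6.66% were separated and lower. HMGB2 had 45.9, 45.8 and 50.4 CPM in libraries 2, 6 and 10 and 112, 106 and 125 CPM in 1, 5 and 9. HMGB1 had 244, 244 and 214 CPM against 449, 459 and 512 CPM. LMNA, the A-type lamin gene, was higher without overlap, at 512 to 598 CPM against 352 to 435 CPM. The B-type lamin gene LMNB1 went the other way without reaching 1.5-fold, at 54.96 to 70.6 CPM against 92.3 to 108 CPM (chosen after its values were seen, as were CNN2, FHL2, FLNA, MDM2, PLK2, GDF15, ACTA2, MYH9, FN1, FBN1, LOXL2, PLAU, TIMP2, TIMP1, MMP2, SMAD3, TGFB1, TGFBR2, YAP1, CCN2, AXL, CDH1, ZEB1, IL6, CXCL8, FOXA1, FOXA2, SPDEF, FGB, VCL, KRT8, GLB1, MKI67, MYLK, TPM4, SMAD6, BAMBI, THY1 and PCNA).

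Genes that p53 activates lay mostly higher. Besides CDKN1A, 14 of 30 p53 target genes that passed (of 32) were separated and higher, 0 were separated and lower, 22 were higher and 2 lower without overlap, and the median log2 ratio was 0.81. Over all genes 9.59% were separated and higher, and 26.4% were higher and 30.7% lower without overlap. FAS, a death receptor gene, had 31.9, 31.6 and 29.8 CPM in libraries 2, 6 and 10 and 5.499, 4.31 and 5.17 CPM in 1, 5 and 9. TP53I3, a quinone oxidoreductase gene, had 228, 178 and 193 CPM against 59.5, 61.4 and 58.6 CPM. TRIM22, an antiviral gene that p53 and interferon both induce, had 4.23, 6.87 and 6.301 CPM against 0.687, 0.735 and 0.499 CPM. MDM2, the ubiquitin ligase that p53 induces against itself, was at 153 to 160 CPM against 76.99 to 87.2 CPM and PLK2 at 118 to 132 CPM against 51.98 to 65.6 CPM. The death receptor gene TNFRSF10B was higher without overlap but short of 1.5-fold, at 156 to 170.1 CPM against 108 to 111 CPM. Against the direction of the list, GDF15, a stress-induced secreted factor, was lower without overlap, at 26.7 to 38.2 CPM against 42.6 to 54.7 CPM.

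**Figure D3:**
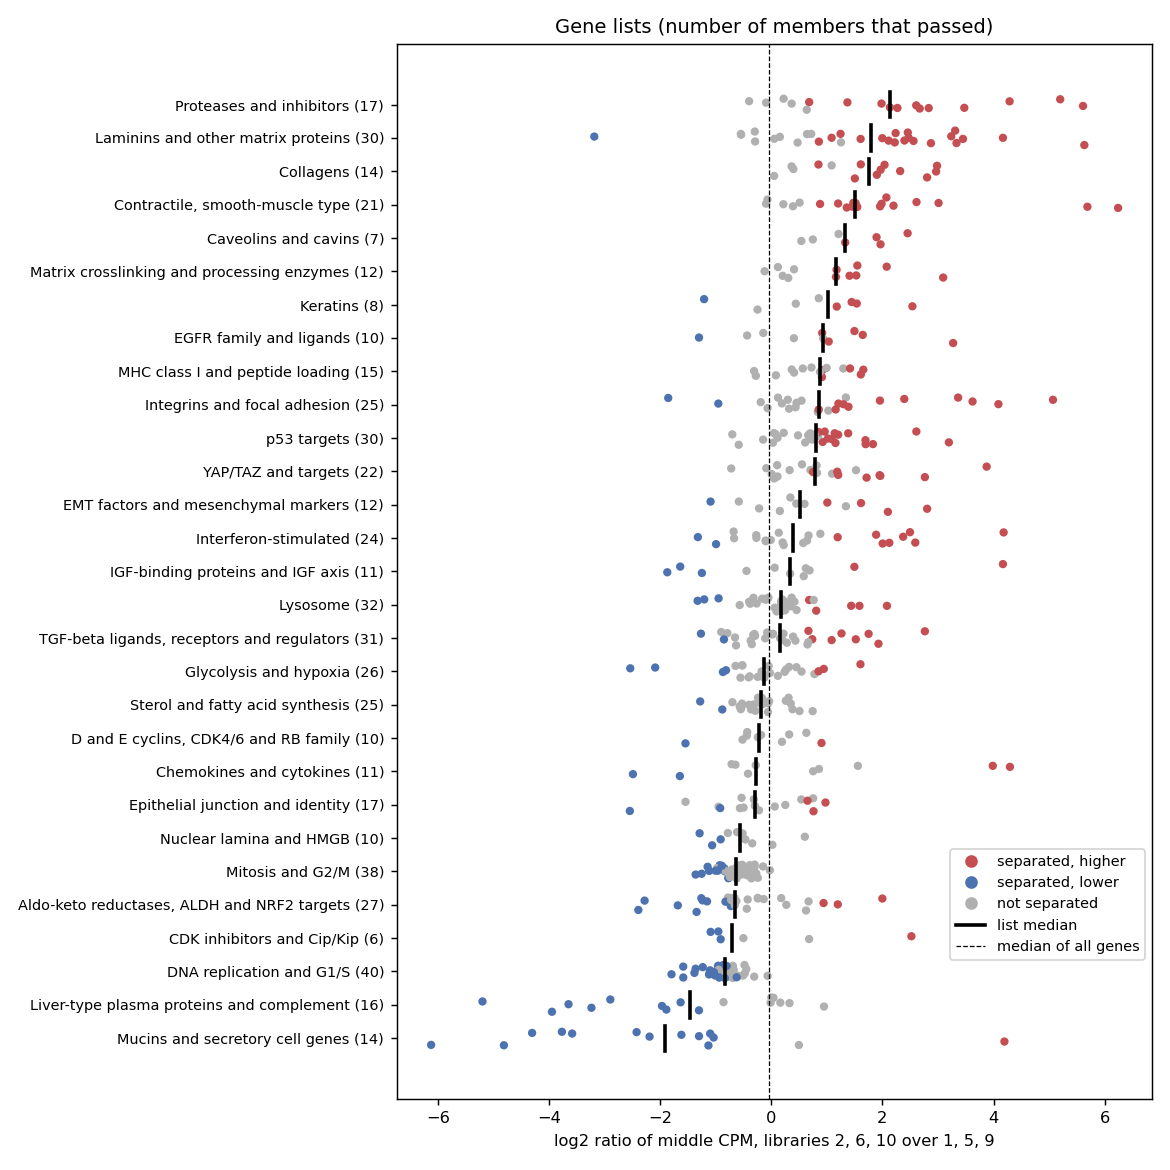
Each point is a list member that passed the level filter, at its log2 ratio of middle CPM in libraries 2, 6, 10 over 1, 5, 9 (horizontal), for each list with at least 5 such members (vertical, ordered by median). Black bars are list medians and the dashed line the median of all genes: protease, matrix, collagen and contractile lists lie at the top, and mucin, plasma protein and replication lists at the bottom.

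Genes of the contractile apparatus were higher in libraries 2, 6 and 10. Of 21 contractile and smooth-muscle-type genes that passed (of 25), 16 were separated and higher and 0 separated and lower, with a median log2 ratio of 1.5. Beside TAGLN, MYL9, a myosin regulatory light chain gene, had 16.3, 11.4 and 21 CPM in libraries 2, 6 and 10 and 0.229, 0 and 0 CPM in 1, 5 and 9. TPM1, which encodes tropomyosin 1 along actin filaments and is the most abundant member, had 1786, 1630.2 and 1479 CPM against 268, 242 and 266 CPM. PDLIM7, an actin-associated adaptor gene, had 59.3, 47.4 and 40.6 CPM against 5.84, 5.88 and 5.94 CPM. The smooth muscle actin gene ACTA2 differed less, at 34.3 to 36.3 CPM against 11.69 to 16.1 CPM, and the non-muscle myosin gene MYH9 was at 566 to 701 CPM against 199.5 to 227 CPM. NEXN, which encodes the actin-binding protein nexilin and was among the 15 genes with the largest closest-library ratios, had 78.2, 92.9 and 111 CPM against 8.02, 5.88 and 7.12 CPM. No library of one set reached the range of the other for any of these genes.

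The CArG box, the sequence bound by serum response factor, stands in the promoters of several contractile genes. In the following 250 bases before the start site, capitals mark the CArG box of FLNA, the actin crosslinker filamin A (chrX:154374635-154374884, minus strand), of FHL2, a LIM-domain adaptor (chr2:105438514-105438763, minus strand), and of CNN2, calponin 2 (chr19:1026358-1026607, plus strand).
FLNA: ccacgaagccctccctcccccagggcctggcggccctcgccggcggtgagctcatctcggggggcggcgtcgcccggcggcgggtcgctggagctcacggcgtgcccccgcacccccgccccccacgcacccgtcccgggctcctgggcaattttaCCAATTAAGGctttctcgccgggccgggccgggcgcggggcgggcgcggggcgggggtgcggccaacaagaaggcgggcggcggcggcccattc
FHL2: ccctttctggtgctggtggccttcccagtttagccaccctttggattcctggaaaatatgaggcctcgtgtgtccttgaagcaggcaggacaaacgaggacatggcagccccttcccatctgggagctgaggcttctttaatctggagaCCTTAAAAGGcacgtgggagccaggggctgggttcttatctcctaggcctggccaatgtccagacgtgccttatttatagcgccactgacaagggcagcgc
CNN2: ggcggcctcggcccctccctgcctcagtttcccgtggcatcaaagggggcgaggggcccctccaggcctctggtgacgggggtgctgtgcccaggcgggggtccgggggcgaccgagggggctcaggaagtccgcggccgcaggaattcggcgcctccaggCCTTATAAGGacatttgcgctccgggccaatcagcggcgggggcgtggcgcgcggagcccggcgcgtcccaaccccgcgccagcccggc
The matches began 94, 101 and 89 bases before the start sites of FLNA, FHL2 and CNN2. FLNA was at 351 to 398 CPM in libraries 2, 6 and 10 and 121 to 142 CPM in 1, 5 and 9, FHL2 at 94.5 to 104 CPM against 21.5 to 23.7 CPM, and CNN2 at 88.1 to 115 CPM against 38.2 to 47.1 CPM. A CArG box was found on either strand in 5 of 19 contractile promoters that matched (26.3%), and in 1.29% of all promoters. The remaining 2 of the 5, the myosin kinase gene MYLK and the tropomyosin gene TPM4, were higher without overlap but not separated. The box was in 1.03% of the promoters of genes that passed, in 2.07% of the promoters of separated higher genes and in 0.655% of those of separated lower genes. The AP-1 letters TGANTCA were in 9.09% of the promoters of separated higher genes, in 4.09% of those of separated lower genes, in 4.40% of those of genes that passed and in 7.76% of all promoters.

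Matrix genes were higher across several families. Of 14 collagen genes that passed (of 20), 10 were separated and higher and 0 separated and lower, with a median log2 ratio of 1.76. COL1A1, a chain of fibrillar collagen I, had 195, 134 and 159.3 CPM in libraries 2, 6 and 10 and 22.8, 18.6 and 22.96 CPM in 1, 5 and 9. COL4A1, a basement membrane collagen gene, had 251, 202 and 187 CPM against 28.2, 24.7 and 25.5 CPM, and COL5A1, a chain of fibrillar collagen V, 284, 214 and 240.5 CPM against 31.5, 30.8 and 28.3 CPM. COL5A2, another collagen V chain gene, overlapped, at 163 to 196 CPM and 170.1 to 191 CPM, so the chains of that collagen did not differ alike.

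Among 30 laminin and other matrix protein genes that passed (of 38), 19 were separated and higher and 1 was separated and lower, with a median log2 ratio of 1.8. SPARC, a collagen-binding matricellular protein gene, had 53.03, 49.6 and 32.9 CPM in libraries 2, 6 and 10 and 0.802, 1.68 and 0.998 CPM in 1, 5 and 9. IGFBP7, a secreted protein of senescent cells, had 384, 374 and 263 CPM against 22.6, 18.7 and 20.8 CPM. TGFBI, an adhesive matrix protein gene named for its induction by TGF-beta, was the most abundant of the list, with 3385, 2771 and 2444 CPM against 378, 363 and 393 CPM and a closest-library ratio of 6.21. EFEMP1, a fibulin gene, was at 51.8 to 60.9 CPM against 5.38 to 6.31 CPM, and FBN1, the microfibril gene fibrillin 1, at 36.6 to 49.7 CPM against 4.01 to 4.63 CPM. Fibronectin was not part of this difference in size, with FN1 at 102 to 107 CPM against 89.3 to 95.5 CPM. The member on the low side was SMOC1, a calcium-binding matricellular gene, with 1.11, 1.65 and 2.45 CPM against 15.01, 17.1 and 12.1 CPM.

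Enzymes that process the matrix lay higher as well. Of 12 crosslinking and processing genes that passed (of 17), 7 were separated and higher and 0 separated and lower, with a median of 1.17. ADAM19, a membrane metalloprotease gene, had 53.9, 40.7 and 40.3 CPM in libraries 2, 6 and 10 and 4.697, 4.94 and 4.76 CPM in 1, 5 and 9. BMP1, which cuts the propeptides of procollagens, had 92.03, 81.3 and 85.1 CPM against 23.03, 20.2 and 17.6 CPM, and TGM2, a transglutaminase that crosslinks proteins, 625, 514 and 446 CPM against 180, 178 and 168 CPM. The lysyl oxidase family gene LOXL2 was at 135 to 158 CPM against 43.7 to 55.3 CPM.

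Secreted proteases and their inhibitors had the highest median among lists with at least 5 members that passed, 2.13, with 12 of 17 genes that passed (of 23) separated and higher and 0 separated and lower. TIMP3 and MMP2 passed through libraries 2, 6 and 10 alone, so the filter favours this direction. The median was 1.03 with a filter of at least 10 CPM, below the 2.11 of laminins and other matrix proteins. The rank of this list thus depends on the filter. TIMP3, a matrix-bound metalloprotease inhibitor gene, had 18.3, 15.4 and 15.4 CPM in libraries 2, 6 and 10 and was listed at 0 in libraries 1, 5 and 9. Against a floor of 3 counts per library, its lowest value was at least 44.8-fold higher. The gelatinase gene MMP2 was at 9.07 to 14.5 CPM against 0.544 to 1.16 CPM, the urokinase gene PLAU at 233 to 263 CPM against 39.3 to 47.5 CPM, and TIMP2 at 841 to 952 CPM against 138 to 154 CPM. Activators and inhibitors of proteolysis thus lay on the same side. TIMP1 overlapped, at 183 to 204 CPM and 155 to 186 CPM.

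Integrin and focal adhesion genes, which tie the matrix to actin, had 11 separated and higher and 2 separated and lower of 25 that passed (of 28), with a median of 0.85. Over all genes 9.59% were separated and higher and 6.66% separated and lower. ITGA11, a subunit of a collagen receptor, had 41.4, 29.7 and 30.8 CPM in libraries 2, 6 and 10 and 0.917, 0.945 and 0.771 CPM in 1, 5 and 9. ITGB6, a subunit of the integrin that activates latent TGF-beta, had 8.24, 6.18 and 7.001 CPM against 0.229, 0.735 and 0.681 CPM. VCL, which encodes vinculin of focal adhesions, was at 484 to 560.2 CPM against 136 to 145 CPM. ITGB5 went the other way, at 345 to 350.3 CPM against 665 to 695 CPM, as did the leukocyte-type ITGB2, at 4.23 to 7.702 CPM against 22.8 to 26.4 CPM. Caveolae genes, which shape small pits of the plasma membrane, had 4 separated and higher of 7 that passed (of 9), and all 7 were higher without overlap. These shares were 9.59% and 26.4% over all genes. CAV1, the main caveolin of non-muscle cells, had 1367, 1308 and 1246 CPM against 371, 339 and 352 CPM, and the coat gene CAVIN1 1136, 986 and 1183 CPM against 291, 336 and 288 CPM.

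In the TGF-beta pathway the ligand gene TGFB2 was higher, while TGFB1 overlapped and the feedback inhibitor genes split. Of 31 ligand, receptor and regulator genes that passed (of 37), 8 were separated and higher and 2 separated and lower, beside 9.59% and 6.66% of all genes. Without overlap, 11 were higher and 12 lower, beside 26.4% and 30.7% of all genes. The median log2 ratio was 0.16. TGFB2 had 99.8, 93.4 and 88.2 CPM in libraries 2, 6 and 10 and 13.7, 16.4 and 10.8 CPM in 1, 5 and 9. The ligand gene TGFB1 overlapped, at 10.7 to 15.6 CPM and 10.3 to 11.8 CPM, and the receptor gene TGFBR2 was lower without reaching 1.5-fold, at 149 to 158.6 CPM against 172 to 199 CPM. SMAD3, a signal transducer, was at 232 to 251 CPM against 126 to 145 CPM. The feedback inhibitor genes PMEPA1 and SMAD7 were higher, at 695 to 906 CPM against 217 to 229 CPM and 18.2 to 24.96 CPM against 5.67 to 6.397 CPM. The inhibitor genes SMAD6 and BAMBI were lower without overlap and short of 1.5-fold, at 32.8 to 35.2 CPM against 37.3 to 45.6 CPM and 36.4 to 45.8 CPM against 57.9 to 58.98 CPM. INHBB, an activin subunit gene, had 41.2, 52.1 and 51.1 CPM against 123, 116 and 123 CPM, and ID1, a target of BMP signalling, 201, 215 and 243 CPM against 439.7, 387 and 388 CPM, and these were the separated genes on the low side.

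YAP and TAZ are co-activators of TEAD factors that respond to adhesion and cell shape. Of 22 of their genes and targets, all of which passed, 8 were separated and higher and 0 separated and lower. The target ANKRD1 had 136, 158.7 and 132 CPM in libraries 2, 6 and 10 and 6.53, 9.24 and 12.3 CPM in 1, 5 and 9, and the matricellular target CCN2 was at 64.1 to 87.3 CPM against 18.7 to 22.8 CPM. PTPN14, a phosphatase gene that YAP induces and that restrains it, was at 101 to 153 CPM against 24.6 to 31.3 CPM, and the receptor tyrosine kinase gene AXL at 108 to 123 CPM against 48.1 to 55.5 CPM. The co-activator genes themselves overlapped: WWTR1, which encodes TAZ, was at 272 to 296 CPM and 253 to 289 CPM, and YAP1 at 31.5 to 36.8 CPM and 32.1 to 43.8 CPM. The TEAD-type letters GGAATG were in 8 of 17 promoters of this list that matched (47.1%) and in 14.05% of all promoters. They were in 10.57% of the promoters of genes that passed, 12.2% of those of separated higher genes and 10.64% of those of separated lower genes.

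Mesenchymal markers and transcription factors gave a mixed picture. Of 12 that passed (of 15), SNAI1, ZEB2, CDH2 and VIM were separated and higher and TWIST1 was separated and lower. Over all genes these shares were 9.59% and 6.66%. VIM, the intermediate filament vimentin, had 2315, 2006 and 1913 CPM in libraries 2, 6 and 10 and 1034, 841 and 997 CPM in 1, 5 and 9. CDH2, which encodes N-cadherin, had 208, 193 and 206 CPM against 66.2, 67.2 and 73.1 CPM. SNAI1, the repressor Snail, was at 4.55 to 10.6 CPM against 0.945 to 1.26 CPM, and TWIST1 at 6.65 to 8.66 CPM against 16.4 to 18.2 CPM. ZEB1 was higher without reaching 1.5-fold, at 23.2 to 31.5 CPM against 15.2 to 21.01 CPM.

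Epithelial genes did not lie on one side. Of 17 junction and identity genes that passed (of 26), 3 were separated and higher and 2 separated and lower, beside 9.59% and 6.66% of all genes. The adhesion molecule gene EPCAM had 6.68, 5.36 and 4.55 CPM in libraries 2, 6 and 10 and 30.02, 32.7 and 31.3 CPM in 1, 5 and 9, and CDH1, which encodes E-cadherin, was at 24.3 to 30.1 CPM against 44.5 to 51.1 CPM, just short of 1.5-fold. The tight junction gene CLDN1 was higher, at 82.3 to 82.9 CPM against 41.8 to 43.3 CPM. Of 8 keratin genes that passed (of 12), 4 were separated and higher (KRT7, KRT8, KRT18 and KRT80) and KRT86 was separated and lower, at 4.46 to 5.601 CPM against 11.1 to 16.4 CPM. KRT7 had 2572, 2120.4 and 2095 CPM against 849, 778 and 705 CPM, and KRT8, the partner of KRT18, 2447, 2115 and 1766 CPM against 935, 959 and 856 CPM. Libraries 2, 6 and 10 thus held lower EPCAM and CDH1 beside higher KRT7, KRT8 and KRT18.

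Secretory epithelial genes were lower. Of 14 mucin and secretory cell genes that passed (of 23), 12 were separated and lower, with a median log2 ratio of -1.9. MUC5AC, MUC5B and FCGBP passed through libraries 1, 5 and 9 alone, so the filter favours this direction. The median was -1.30 with a filter of at least 10 CPM. MUC5B, another gel-forming mucin, had 0, 0.137 and 0 CPM in libraries 2, 6 and 10, where it rests on a single read, and 22.6, 18.8 and 17.8 CPM in 1, 5 and 9. AGR2, a disulfide isomerase needed to fold mucins, had 292, 392 and 332 CPM against 1777, 1782 and 1936 CPM. FCGBP, a mucus protein gene, was at 0.223 to 0.962 CPM against 17.4 to 24 CPM. The transcription factor genes of this programme were lower too: SPDEF was at 7.13 to 12.6 CPM against 37.3 to 48.8 CPM, FOXA1 at 14.6 to 17.2 CPM against 40.9 to 45.9 CPM and FOXA2 at 106 to 114 CPM against 226 to 232 CPM. The exception was MUC3A, a membrane mucin gene, with 28.7, 19.2 and 23.1 CPM against 2.52, 1.26 and 1.09 CPM.

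Genes of plasma proteins that the liver makes, several of which A549 cells also express, were lower in part. Of 16 that passed (of 41), 9 were separated and lower and 0 separated and higher, with a median of -1.47. The median was -0.01 with a filter of at least 0.5 CPM. The 0 on the high side holds for the listed genes only. C4BPB, a complement regulator gene outside the list (chosen after its values were seen), was separated and higher. It was at 7.70 to 10.5 CPM in libraries 2, 6 and 10 and 0.318 to 0.630 CPM in 1, 5 and 9. The listed C4BPA was at 0.668 to 1.75 CPM against 10.4 to 10.9 CPM. Beside CP, FGG, a fibrinogen chain gene, had 19.6, 14.7 and 13.7 CPM in libraries 2, 6 and 10 and 185, 190.4 and 164 CPM in 1, 5 and 9. APOH, a phospholipid-binding glycoprotein gene, had 17.8, 24.6 and 21 CPM against 177, 222 and 198 CPM, and FGB, another fibrinogen chain, was at 52.2 to 70.2 CPM against 419.7 to 498 CPM. FGL1, a fibrinogen-like secreted protein gene among the 15 largest differences on the low side, had 12.7, 17.6 and 18.6 CPM against 318, 326 and 309 CPM. CLU, which encodes clusterin and is the most abundant gene of the list, overlapped, at 824 to 874 CPM and 740.3 to 824 CPM.

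Secreted signals split by gene. Of 11 chemokine and cytokine genes that passed (of 26), CCL2 and IL11 were separated and higher and CXCL3 and CXCL5 separated and lower. Over all genes these shares were 9.59% and 6.66%. CCL2, which attracts monocytes, had 159.8, 165 and 136 CPM in libraries 2, 6 and 10 and 8.13, 6.62 and 8.302 CPM in 1, 5 and 9, and IL11, a cytokine of the IL6 family, 76.2, 58.3 and 44.5 CPM against 4.81, 3.68 and 3.13 CPM. The neutrophil chemokine genes CXCL3 and CXCL5 were at 2.67 to 3.85 CPM against 17.6 to 19.96 CPM and 80.9 to 123 CPM against 256 to 305 CPM. CXCL8 overlapped, at 5.79, 4.95 and 1.75 CPM and 1.26, 1.68 and 2.22 CPM, and IL6 was at most 0.668 CPM. PTGS2, the inducible cyclooxygenase gene, was among the 15 largest differences on the low side, with 22.95, 25.1 and 21 CPM against 212, 212 and 205 CPM. Among the members that passed, higher cytokine levels were therefore limited to some. The list's median log2 ratio was -0.28, and 1.06 with a filter of at least 0.5 CPM, which admits more genes.

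A senescence-like state is known by several features, and the libraries met some of them. CDKN1A was higher, and LMNB1, the HMGB genes and most replication genes were lower in every one of libraries 2, 6 and 10. CDKN2A was listed at 0 and IL6 was near 0 in both sets, so neither gene distinguished them. GDF15 and CXCL3 were lower in libraries 2, 6 and 10. The proliferation marker gene MKI67 was still at 127, 150.1 and 174 CPM in libraries 2, 6 and 10, beside 187, 203 and 242 CPM in 1, 5 and 9. These counts do not measure whether the cells had stopped dividing.

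Growth factor and receptor genes of the EGF family were higher in part. Of 10 that passed (of 13), 5 were separated and higher and 1 separated and lower, beside 9.59% and 6.66% of all genes. The receptor gene EGFR had 152, 168 and 174 CPM in libraries 2, 6 and 10 and 49.2, 62.3 and 59.7 CPM in 1, 5 and 9, and its ligand gene HBEGF 27.6, 30.6 and 27.3 CPM against 3.09, 2.63 and 2.86 CPM. ERBB3, the receptor without an active kinase, was lower, at 5.25 to 6.32 CPM against 13.7 to 16.6 CPM. In the IGF axis, IGFBP6 was at 101 to 114 CPM against 34.4 to 39.5 CPM, while IGFBP3 was lower, at 61.97 to 77.8 CPM against 187 to 225 CPM. IRS2, an adaptor of insulin and IGF receptors, had 149, 158 and 170.5 CPM against 578, 579.5 and 597 CPM.

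Immune display genes lay higher in part. Of 15 MHC class I and peptide loading genes that passed (of 16), 5 were separated and higher and 0 separated and lower. Over all genes these shares were 9.59% and 6.66%. The transcriptional activator of MHC class I genes, NLRC5, was at 5.63 to 9.102 CPM against 1.47 to 2.64 CPM. The immunoproteasome gene PSMB9 was at 31.3 to 38.1 CPM against 11.2 to 17.5 CPM. MHC genes include near-identical copies, so their counts are uncertain. Of 24 interferon-stimulated genes that passed (of 35), 8 were separated and higher and 2 separated and lower, beside 9.59% and 6.66% of all genes. GBP1, a guanylate-binding protein gene, was at 12.5 to 16.8 CPM against 0.687 to 1.05 CPM and ISG15, a ubiquitin-like modifier gene, at 23.1 to 27.4 CPM against 3.68 to 4.697 CPM. IFITM2 went the other way, at 79.5 to 92.8 CPM against 200.1 to 222 CPM. HLA-DMB, a class II peptide loading gene among the 15 largest differences on the low side, had 7.35, 6.46 and 7.702 CPM against 146, 138 and 122 CPM.

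Redox and detoxification enzymes, for which A549 cells are known because NRF2 is constantly active in them, were lower in part. Of 27 that passed (of 28), 9 were separated and lower and 3 separated and higher, beside 6.66% and 9.59% of all genes. ALDH3A1, an aldehyde dehydrogenase gene, had 464, 539 and 543 CPM in libraries 2, 6 and 10 and 2699, 2618 and 2101 CPM in 1, 5 and 9. AKR1C2, an aldo-keto reductase gene with near-identical copies whose reads may be shared, had 1451, 1396 and 1500.0 CPM against 4884, 4659.6 and 4643 CPM. GPX2, a glutathione peroxidase gene, had 127, 142 and 144 CPM against 801, 748 and 684 CPM. The most abundant member, ALDH1A1, did not share this direction, at 6279 to 7333 CPM against 6032 to 6089 CPM, and the heme oxygenase gene HMOX1 was higher, at 35.6 to 43.4 CPM against 8.67 to 11.9 CPM.

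Of the 15 genes with the largest closest-library ratios on the high side among genes with a mean of at least 20 CPM, TAGLN, SPARC, CCL2, IGFBP7, ANKRD1 and NEXN are given above. Among the rest, L1CAM, a neural cell adhesion gene, was at 53.7 to 60.2 CPM against 2.45 to 3.36 CPM, GLIPR1, a secreted protein gene, at 112 to 132 CPM against 3.99 to 7.76 CPM, and SPOCK1, a matrix proteoglycan gene, at 37.1 to 50.6 CPM against 2.27 to 2.94 CPM. Also among them were WFDC21P, NIPAL4, TRIML2 and the ribosomal pseudogene RPS2P46, which shares sequence with its parent gene and is uncertain. On the low side, PDK4, a kinase that keeps pyruvate out of mitochondria, had 24.1, 29.1 and 28.4 CPM against 316, 368 and 341 CPM. AQP3, a water and glycerol channel gene, was at 9.36 to 12.9 CPM against 126 to 131 CPM, CPS1, which makes carbamoyl phosphate, at 5.77 to 8.402 CPM against 69.9 to 78.1 CPM, and S100P, a calcium-binding protein gene, at 12.3 to 21.02 CPM against 173 to 204 CPM. RBFOX3, TOX3, CPLX2 and INSL4 completed that group with MUC5AC, CP, FGL1, HLA-DMB, FGG, PTGS2 and APOH.

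**Figure D4:**
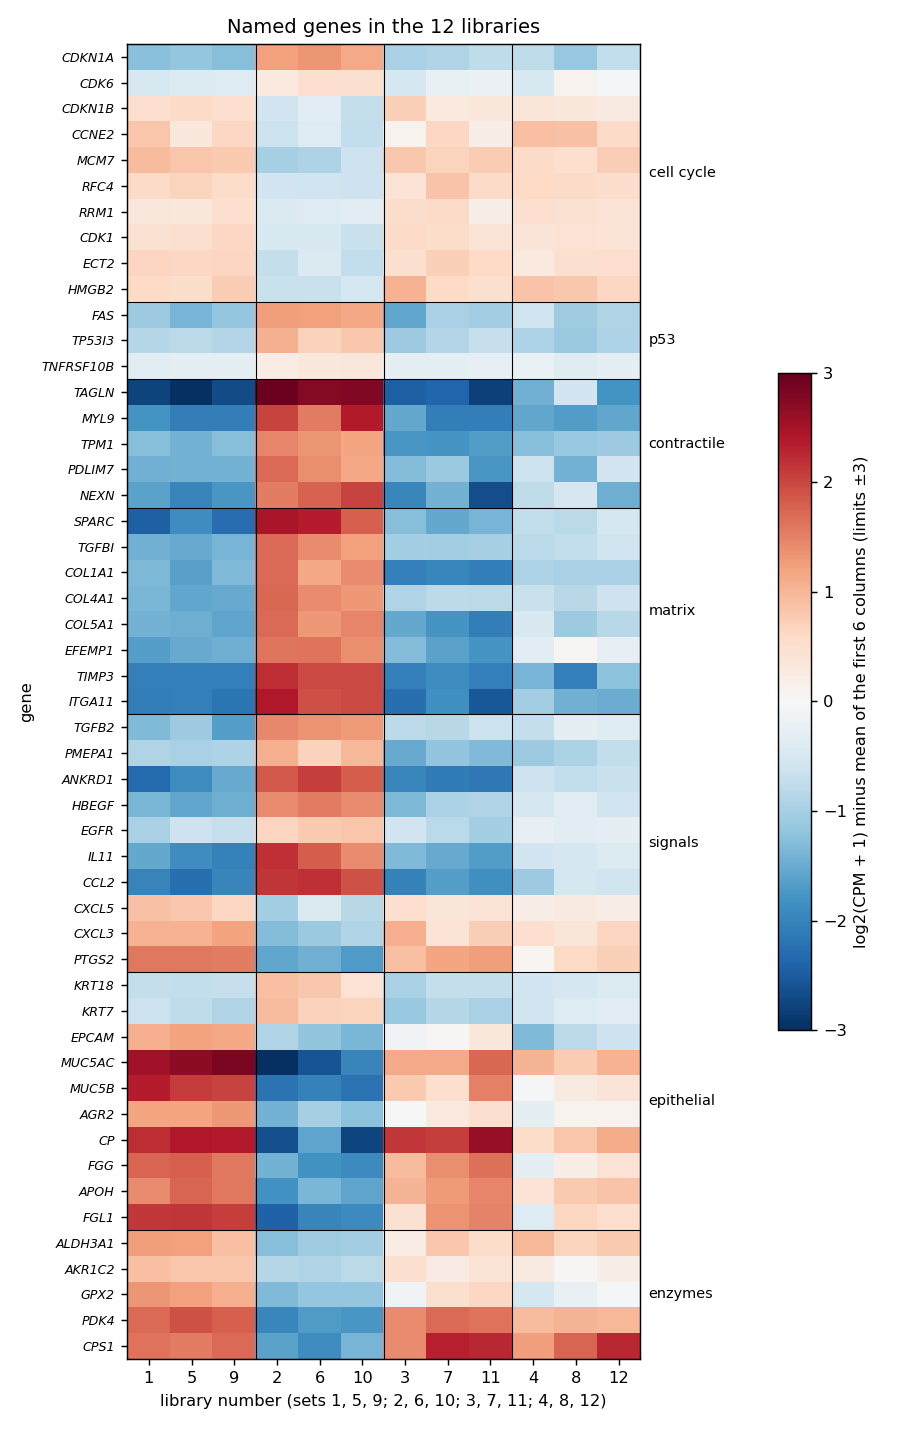
Colour gives log2(CPM + 1) minus the mean of the 6 libraries 1, 5, 9 and 2, 6, 10 (limits of 3 either way) for selected genes named in the text (rows, by role) in all 12 libraries (columns, by set). In libraries 2, 6 and 10 the plotted p53, contractile and matrix rows are red, and the plotted replication and mitosis genes, MUC5AC, CP and the plotted enzyme rows are blue. Members that lay the other way, such as GDF15, SMOC1 and HMOX1, are not plotted.

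The other 6 libraries are given for scale. TAGLN was at 1.56 to 2.39 CPM in libraries 3, 7 and 11 and at 4.15 to 10.9 CPM in 4, 8 and 12, and CDKN1A at 54.1 to 62.4 and 47.9 to 63.7 CPM. MUC5AC was at 28.5 to 43.8 and 21.8 to 27.01 CPM there, and CP at 219 to 317 and 74.8 to 111 CPM. For TAGLN, libraries 4, 8 and 12 thus lay above 3, 7 and 11 but far below 2, 6 and 10. By the same rule, 60 genes (0.508%) were separated and higher in libraries 4, 8 and 12 than in 3, 7 and 11, and 34 (0.288%) separated and lower. Whether the sets differ more in one pair than in the other was not tested.

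Markers of other cell types were checked because a matrix-rich profile can come from stromal cells in a bulk sample, where fewer cells of a type and less RNA per cell cannot be told apart. Of 11 fibroblast markers, 4 passed the filter, and 3 of these (LUM, COL1A1 and THY1) were separated and higher, with a median log2 ratio of 2.87 over the 4. LUM and THY1 passed through libraries 2, 6 and 10 alone, so the filter favours this direction. The median was 1.13 with a filter of at least 10 CPM. The summed level over all 11 was 179.9 to 253 CPM in libraries 2, 6 and 10 and 58.03 to 69.5 CPM in 1, 5 and 9. COL1A1 made up most of this sum in libraries 2, 6 and 10, and LUM, a small proteoglycan gene, was at 11.3 to 13.6 CPM against 0.817 to 1.58 CPM. THY1, a surface glycoprotein gene, was at 7.001 to 13.1 CPM against 1.04 to 1.89 CPM. The markers COL1A2, COL3A1, DCN, PDGFRA and PDGFRB were at most 1.05 CPM in all 6 libraries, and the part of LUM, COL1A1, THY1 or of other cells in the matrix values was not tested. Leukocyte markers summed to 8.02 to 12.8 CPM against 6.58 to 9.87 CPM with CD3E at 0, and endothelial markers to 19.1 to 20.7 CPM against 1.13 to 3.67 CPM, nearly all from ESAM, with VWF, KDR, CLDN5 and EMCN at 0. The epithelial keratin genes KRT8 and KRT18 were at 1766 to 2447 and 6091 to 8464 CPM in libraries 2, 6 and 10 and at 856 to 959 and 2739 to 2812 CPM in 1, 5 and 9. Of 12 lung epithelial markers, 4 passed the filter and 0 of these were separated in either direction. All 12 summed to 51.1 to 66.5 CPM in libraries 2, 6 and 10 and to 44.5 to 49.95 CPM in 1, 5 and 9. Among them SFTPC and NKX2-1 were at most 0.227 CPM in the 6 libraries.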

How the data were processed

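RNA of 12 libraries was made into QuantSeq FWD V2 libraries, per the labels' protocols, and the submitters' processing notes name STAR and GRCh38.p14; for the STAR version, annotation and use of molecular identifiers nothing is stated. Raw counts per gene were deposited, and each of the 40605 rows of the authors' merged table equals a transcript-strand row of the per-library files. The merged table was used. Reads in rows that name no gene, 35.5% to 43.2% in the 6 libraries, stayed out of the totals. Totals of the 6 libraries ran from 2.78e+06 to 22.0e+06 counts, so 3 counts, the floor for values at or near 0, correspond to 0.136 to 1.05 CPM (counting error only). CPM used TMM factors over the 12 libraries (edgeR 4.0.16, R 4.3.3).

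Libraries were set together by number, across the titled groups, with no test. The members, gene lists (33 lists) and rules were chosen with earlier results of these data known. Named genes are 7 markers, the 15 genes per side with the widest gap (mean of 20 CPM or more), and per list up to 3 separated members a side with its most abundant gene; any other was picked with its values in view. Some genes that the rule names are not reported here. Symbols were matched to RefSeq, and 9520 of 11984 unique symbols that passed had a promoter. Alternatives were DESeq2 1.42.0 size factors, library totals, other filters and gaps, unstranded counts, all gene rows, no mitochondrial genes, leaving out each library, and, added after the data were seen, thinning. The script that counts separated genes was tested on simulated counts with known changes.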

Additional observations from a re-analysis of the deposited data

How the results depend on the processing

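The number of genes separated and higher in libraries 2, 6 and 10 (1150) was 742 with a mean of at least 10 CPM, 649 with closest libraries at least 2-fold apart and 3161 with any gap. The number separated and lower (799) was 291 at 2-fold and 3683 with any gap. Leaving out a library gave 1221 to 1288 higher and 869 to 1020 lower. This step cannot narrow a gene's gap, so apart from changes at the level filter these counts could only stay or rise. DESeq2 size factors gave 1225 and 713, library totals 1192 and 756, and unstranded counts 1118 and 830. Values of named genes moved by more than the spread within a set in 103 cases (74 genes), and by over 1.5 times in 17 (15 genes); list medians did so in 28 cases (16 lists) and in 5. With unstranded counts TAGLN was at 2.39 (6.24), CCNE2 at -0.51 (-1.55) and CP at -4.54 (-5.20). Thinning raises the floor, and took MYL9 to 4.04 (5.69), TIMP3 to 4.01 (5.61), MMP10 to 1.73 (3.47) and TNS1 to 2.21 (4.09). A filter at 0.5 CPM gave -0.01 for plasma proteins (-1.47), and one at 10 CPM gave 1.03 for proteases (2.13), -1.30 for mucins (-1.90) and 1.13 for fibroblast markers (2.87). Of the named genes, 3 changed sign under at least 1 of 16 alternatives. COL5A2 and DYRK1B, whose sets overlap, did so within their spread, and ALDOC, a glycolytic aldolase gene with a log2 ratio of -2.09, was at 0.14 with unstranded counts; the cause was not tested. Of 33 lists, the median changed sign for chemokines and cytokines (-0.28, and 1.06 with a mean of at least 0.5 CPM, which admits more genes) and for alveolar and airway epithelial markers (0.27, with 4 members, -0.03 without WT doxycycline replicate 3 and -0.38 after thinning). No paired analysis was possible because no result comes from a test, and no label ties a library of one set to one of the other. Depth limits genes at a few reads in library 10, where 3 counts are 1.05 CPM.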

Other observations

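Lists of metabolic and lysosomal genes were also compared between libraries 2, 6, 10 and 1, 5, 9. Of 26 glycolysis and hypoxia genes that passed (of 27), 3 were separated and higher and 4 separated and lower, beside 9.59% and 6.66% of all genes. The glucose transporter gene SLC2A1 had 230.4, 206 and 221 CPM against 115, 108 and 122 CPM, and the peptide hormone gene ADM 79.1, 79.01 and 85.4 CPM against 26.01, 23.9 and 38.9 CPM. The carbonic anhydrase gene CA12 was lower, at 481 to 586 CPM against 986 to 1029 CPM, and GAPDH overlapped, at 2298 to 2843 CPM and 2628 to 3174 CPM. Of 25 sterol and fatty acid synthesis genes that passed (of 26), 0 were separated and higher and 2 separated and lower. The share on the low side was thus near the 6.66% of all genes. FADS1, a fatty acid desaturase gene on the low side, was at 433 to 463 CPM against 821 to 927 CPM.

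Of 32 lysosome genes that passed (of 34), 5 were separated and higher and 3 separated and lower, beside 9.59% and 6.66% of all genes. The cholesterol exporters of the lysosome lay together on the high side, with NPC2 at 206, 179 and 179 CPM against 59.5, 60.8 and 48.9 CPM and NPC1 at 58.8, 55.9 and 54.96 CPM against 23.7, 17.4 and 20.6 CPM. The glycosidase genes GAA and GUSB were lower, at 32.2 to 33.6 CPM against 68.6 to 81.3 CPM and 16.8 to 22.1 CPM against 42.4 to 48.6 CPM. GLB1, which encodes the beta-galactosidase used as a stain for senescence, was at 89.8, 97.1 and 99.1 CPM and 87.1, 85.9 and 82.1 CPM, a gap of less than 1.5-fold.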
